A study of Bubalus bubalis with 6 samples.

Results

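The genes described here are 10 genes of fat cell formation and lipid storage: the adipogenic transcription factors CEBPA, CEBPB, CEBPD and ZFP423, the fatty acid carrier FABP4, the lipid droplet coat proteins PLIN1 and PLIN2, the lipase LPL, the fatty acid transporter CD36 and the adipokine ADIPOQ. They were looked up by symbol. Of these 10 genes, 5 have a row in the deposited table of 24616 genes (PLIN2, PLIN1, FABP4, LPL and ADIPOQ). CEBPA, CEBPB, CEBPD, CD36 and ZFP423 were not matched by symbol and were not analysed here, except that the table lists ZNF423, the cattle symbol for ZFP423. All 5 listed genes had at least 10 counts over the 6 samples and entered the test, which covered 15576 genes. FABP4 reached that minimum through its DM counts alone.

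Polyadenylated RNA was sequenced from muscle stem cells (MuSCs) of water buffalo (Bubalus bubalis), which the study isolated from fetal longissimus muscle with collagenase and trypsin. The 3 GM samples were proliferating cells in growth medium, DMEM with fetal bovine serum, and the 3 DM samples were differentiating cells after a change to DMEM with horse serum. The labels name no genetic change in either group. The change of medium was made on nearly confluent cells. GM and DM samples differ in kind and amount of serum as well as in stage of differentiation, and these cannot be told apart. The labels give neither age nor time in the medium. The study's methods state an embryonic age for the tissues it collected and a maximum time in differentiation medium. The labels do not say whether the 3 samples of a group were separate cultures or came from separate animals. The p-values below therefore measure the spread between these samples, which may be technical.

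Fat cells form when precursor cells commit to the lineage and the C/EBP factors and PPARG, the nuclear receptor that is the master regulator of the fat cell, switch on the genes for taking up, binding and storing fatty acids. Fatty acids are stored as triglyceride in lipid droplets, whose surface is covered by perilipins. PLIN1 coats the droplets of fat cells, while PLIN2 and PLIN3 are found on droplets of most cells, muscle included. Muscle tissue also holds fibro-adipogenic progenitors, stromal cells that can become fat cells, beside the satellite cells from which myoblasts are grown.

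Between 35615864 and 40305237 reads were counted on genes in each sample, and 3 counts, used here as the floor of detection, correspond to 0.0721 to 0.0888 CPM (counts scaled to a common library size with TMM factors). DM replicate 3 stood apart from the other DM samples: the chi-square per degree of freedom between replicates was 40.5 to 41.4 for the pairs with it and 6.22 to 11.7 for all other pairs. The 5 listed genes are therefore also given without it. Of the other genes followed across all alternatives, LPIN1 and RARRES2 were no longer called without it and FABP3 changed direction, while the rest kept their direction and their call. A gene was called when edgeR's quasi-likelihood test gave an absolute log2 fold change above 1 and a Benjamini-Hochberg adjusted p under 0.05. In all, 25.3% of tested genes were called in either direction.

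Of the 5 listed genes, 2, PLIN2 and FABP4, were called higher in DM samples, where 15% of all tested genes were, none was called lower, where 10.3% were, and LPL, PLIN1 and ADIPOQ were not called. FABP4 entered the test through its DM counts alone, so the count of 2 is a description of these genes and not a share to set against all genes. GM and DM samples did not overlap for 2 of the 5, PLIN2 and FABP4, beside 68.8% of all tested genes. Over all tested genes the median log2 fold change was 0.025. That of the 5 was 1.68, the value of PLIN1, which was not called. FABP4 lies above it, so this median too is a description and not a value to set against all genes. PLIN2 had 4519 to 16413 counts per sample, and the other 4 had at most 21 counts in any sample. In bulk samples a smaller number of cells of a type and less RNA per cell cannot be told apart, and this holds for every level below.

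PLIN2, perilipin 2 or adipophilin, coats lipid droplets and is made in most cells that store lipid. PLIN2 (ENSBTAG00000005718) lies at chr8:25129168-25142901 on the forward strand, in the coordinates of the deposited table, which names no genome build. Its raw counts were 5131, 4899 and 4519 in GM samples and 13749, 11824 and 16413 in DM samples. Every DM sample was above every GM sample, with the highest value in DM replicate 3. The level was 120 ± 3.11 CPM in GM samples and 391 ± 61.8 CPM in DM samples (SD, n = 3 each). The log2 fold change was 1.70 (SE 0.10), which is 3.25-fold on the CPM means, with an adjusted p of 2.02e-07 (edgeR). Without DM replicate 3 the log2 fold change was 1.61. Per length, PLIN2 rose from 63.2 ± 1.78 to 192 ± 28.8 RPKM (SD, n = 3 each), from rank 1584 to rank 384 of the 24616 genes by mean RPKM.

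The mRNA table lists 3 transcripts of PLIN2, of 1824, 1410 and 1815 bases. Each held most of the gene's counts in every sample, with shares of 97.1 to 97.8%, 87.4 to 88.6% and 89.8 to 91.2%. These shares add up to far more than the whole, so the same reads were counted on several transcripts and the transcripts are not independent measurements. Their log2 fold changes were 1.69, 1.67 and 1.68. With the single transcript of FABP4, 4 of the 7 transcripts of the listed genes were called, all higher in DM samples, where 15.5% of 16352 tested transcripts were called higher. The 4 stand for PLIN2 and FABP4 alone, and FABP4 entered the test through its DM counts alone. Their count is therefore a description and not a share to set against all transcripts.

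FABP4, the fatty acid binding protein of fat cells and macrophages, carries fatty acids inside the cell. FABP4 (ENSBTAG00000037526, chr14:46833665-46838053, reverse strand) had 0, 1 and 1 counts in GM samples and 15, 16 and 13 counts in DM samples. The GM samples were all under the floor of 3 counts, and the 3 DM samples were close to one another. Its fitted log2 fold change was 4.38 (SE 0.75), with an adjusted p of 0.000448 (edgeR), both given as a description, since FABP4 passed the minimum of 10 counts only through the group in which it was high and the fitted value rests on 2 GM counts. Summed over samples and scaled for library size, 44 counts against 2 give a ratio of 24.8, with an exact 95% interval of 6.47 to 211 that covers counting error only. Without DM replicate 3 the log2 fold change was 4.49. The level in DM samples stayed low, at 0.411 ± 0.0517 CPM (SD, n = 3), against 391 CPM for PLIN2. Per length, FABP4 reached 0.635 ± 0.0787 RPKM in DM samples (SD, n = 3), rank 12684 of the 24616 genes.

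PLIN1 coats the large droplet of the fat cell and holds back lipolysis. PLIN1 (ENSBTAG00000015350, chr21:21502826-21516686, reverse strand) had 11, 2 and 1 counts in GM samples and 18, 21 and 1 counts in DM samples. DM replicates 1 and 2 were above all GM samples, while DM replicate 3 was at the level of GM replicate 3. The log2 fold change of 1.68 (SE 0.96) did not pass the test, with an adjusted p of 0.151 (edgeR). Without DM replicate 3 PLIN1 was called higher, with a log2 fold change of 2.24 and an adjusted p of 0.00442 (edgeR). Without GM replicate 1, the highest GM sample, the log2 fold change was 3.21 and the adjusted p was 0.0508 (edgeR). Over the pooled counts, 40 against 14, the DM over GM ratio was 3.22, with an exact 95% interval of 1.71 to 6.41. That interval covers counting error only and leaves out the spread between replicates, which ran from 1 to 21 counts in DM samples.

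ADIPOQ encodes adiponectin, a hormone made almost solely by fat cells. ADIPOQ (ENSBTAG00000019813, chr1:81005168-81018328, reverse strand) had 8, 3 and 4 counts in GM samples and 1, 7 and 14 counts in DM samples. Both the lowest and the highest value were DM samples. The log2 fold change was 0.69 (SE 0.79, adjusted p 0.469, edgeR), and without DM replicate 3 it was -0.12. The pooled counts give a DM over GM ratio of 1.65, with an exact 95% interval of 0.819 to 3.43 for counting error, so a change was not detectable at this depth.

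LPL, lipoprotein lipase, frees fatty acids from circulating triglyceride and is secreted by both fat and muscle cells. LPL (ENSBTAG00000012855, chr8:67481089-67511227, forward strand) had 8, 10 and 7 counts in GM samples and 1, 3 and 7 counts in DM samples. DM replicates 1 and 2 were below all GM samples, and DM replicate 3 was equal in counts to GM replicate 3. The log2 fold change was -0.998 (SE 0.68), with an adjusted p of 0.225 (edgeR), and it was -1.80 without DM replicate 3, with an adjusted p of 0.0784 (edgeR). The pooled GM over DM ratio was 2.02, with an exact 95% interval of 0.957 to 4.54 for counting error. No other listed gene overlaps any of the 5 genes in position.

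**Figure D1:**
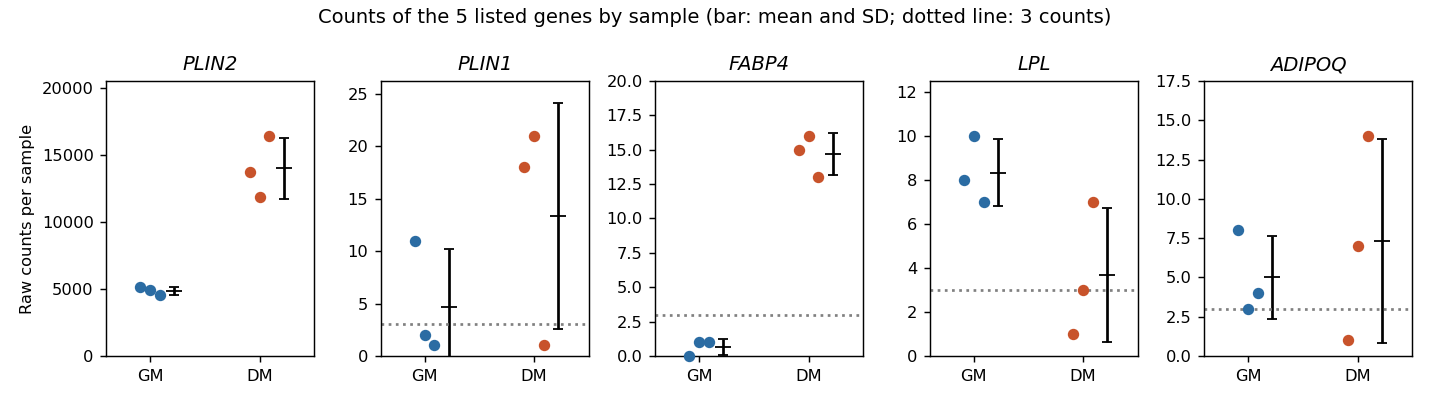
Raw counts per sample (y axis, linear, a separate scale for each gene) of the 5 listed genes in GM (blue) and DM (orange) samples, with the mean and SD of each group as a black bar, cut off at 0, and 3 counts as a dotted line. PLIN2 is at 4519 to 16413 counts, FABP4 is at 0 to 1 counts in GM and 13 to 16 in DM samples, and GM and DM samples overlap for PLIN1, LPL and ADIPOQ.

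The perilipins differ in where they act, and their shares of the family changed. PLIN3, which also coats small droplets, was called lower in DM samples, with counts of 4258, 4529 and 3979 in GM samples and 1831, 1711 and 1697 in DM samples. Its log2 fold change was -1.11 (SE 0.077, adjusted p 5.17e-07, edgeR). Of the summed RPKM of PLIN1 to PLIN5, PLIN2 made up 52.0 ± 1.32% in GM and 88.2 ± 1.81% in DM samples, and PLIN3 made up 47.9 ± 1.37% in GM and 11.7 ± 1.75% in DM samples (SD, n = 3 each). The share of PLIN2 was 87.7, 86.7 and 90.2% in DM replicates 1, 2 and 3. The shares of PLIN2 and PLIN3 did not overlap between groups, and the exact two-sided permutation p for each was 0.1, the smallest that 3 against 3 samples allow. PLIN1 made up 0.0299% in GM and 0.0559% in DM samples on average, and PLIN4 and PLIN5 were lower still. Among the fatty acid binding proteins FABP3, the heart and muscle form, held nearly all of the family's RPKM, 96.0 ± 1.06% in GM and 96.9 ± 0.211% in DM samples (SD, n = 3 each). FABP4 took 0.0146% in GM and 0.347% in DM samples on average. FABP3 itself did not pass the test, with a log2 fold change of 0.16 (adjusted p 0.389, edgeR) that was -0.061 without DM replicate 3. FABP3 shares its position with a gene on the other strand, and whether reads were counted by strand is not given in the sources used here.

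**Figure D2:**
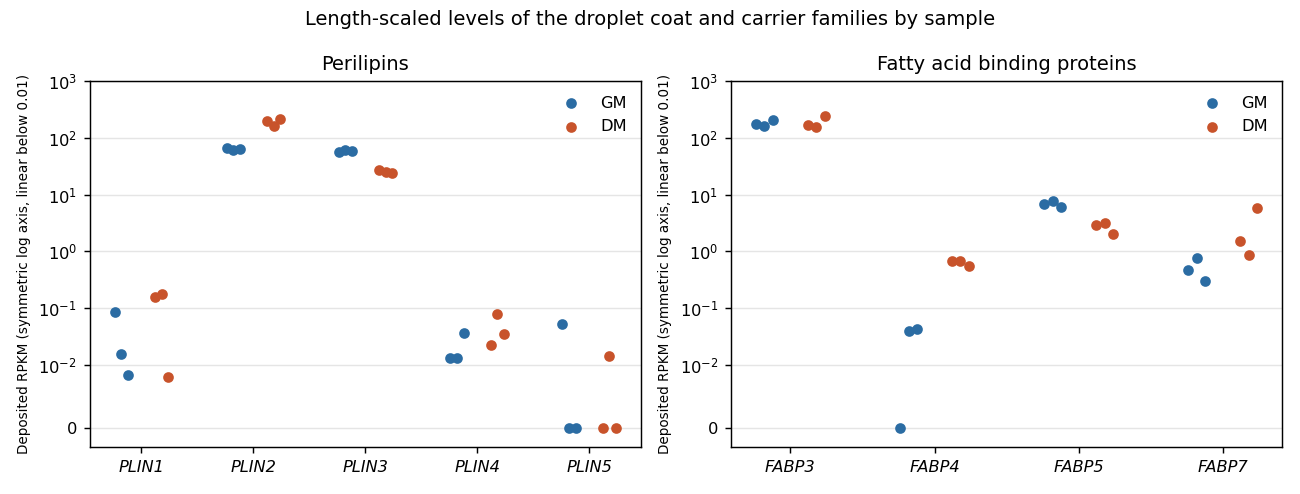
Deposited RPKM per sample (y axis, symmetric log scale, linear below 0.01) of the perilipins and of the fatty acid binding proteins with a value above 0 in most samples, GM in blue and DM in orange. PLIN2 and PLIN3 are at about the same level in GM samples and apart in DM samples, and FABP3 lies above FABP4 by more than 100 RPKM in every sample.

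The genes whose level over the 6 samples ran most like that of a listed gene were sought among genes that averaged 10 CPM or more. For PLIN2 these were MXRA5 (Pearson's r 0.999 of log2 CPM) and EVI5 (r 0.998), for FABP4 they were SWAP70 and DNAJC4 (r above 0.99 for both), and for PLIN1 they were MAN2A1 and TNIK (r 0.976 for both). These values are descriptions over 6 samples in 2 groups. Of 8059 genes compared, 215 had an r above 0.99 with PLIN2, so many genes shared its step from GM to DM samples. For FABP4, with 0 to 1 counts in each GM sample, 169 of 8060 genes had an r above 0.99.

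Adipogenic transcription factors are the regulators above the listed genes. PPARG moved the other way from PLIN2 and FABP4. Its counts were 160, 191 and 172 in GM samples and 3, 14 and 18 in DM samples. Every DM sample was far below every GM sample, and the log2 fold change was -3.73 (SE 0.39, adjusted p 1.1e-05, edgeR). Without DM replicate 3 it was -4.14. ZNF423, which commits precursor cells to the fat lineage, had 427, 391 and 444 counts in GM samples and 613, 598 and 522 in DM samples. The groups did not overlap, and the log2 fold change was 0.63 (SE 0.13, adjusted p 0.00127, edgeR), which is under the fold needed for a call.

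Of 22 tested adipogenic transcription factors, 6 were called higher and 1, PPARG, was called lower, and the list median of the log2 fold change was 0.60. Beside this list and those below, 15% of all tested genes were called higher and 10.3% lower. PPARGC1A, the coactivator of mitochondrial genes, had a log2 fold change of 3.77 (SE 0.33), KLF15, a glucocorticoid-induced factor of fat and muscle, had 3.60 (SE 0.27), and PRDM16, a brown fat factor, had 2.74 (SE 0.32). The early factors EGR2 (1.86, SE 0.30) and KLF4 (1.55, SE 0.078) rose too. DDIT3 (1.31, SE 0.086), a stress-induced relative of the C/EBP factors that overlaps MARS on the other strand, was also called higher. It is counted in this list whatever the direction in which it acts on fat cell formation. CEBPG, the C/EBP family member that had a row and ample counts, had a log2 fold change of 0.10 (SE 0.068, adjusted p 0.21, edgeR). EBF1 and EBF2, factors of fat precursors, had log2 fold changes of 0.82 and 0.94, and SREBF1, which drives fatty acid synthesis, had 0.93, all under the fold needed for a call. Without DM replicate 2, EBF2 (1.11) and SREBF1 (1.03) were called higher.

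Of 18 tested inhibitors of adipogenesis, 3 were called higher and 5 lower, and the list median of the log2 fold change was -0.56. DLK1 (preadipocyte factor Pref-1), which keeps fat precursors from maturing, had 60, 76 and 47 counts in GM samples and 11, 1 and 2 in DM samples. Its log2 fold change was -3.48 (SE 0.61, adjusted p 0.000509, edgeR), and it was -5.09 without DM replicate 1, the DM sample with most of the counts, and -3.10 without DM replicate 3. The forkhead factor FOXC2 (-2.92, SE 0.35), the secreted ligand WNT5A (-1.61, SE 0.24) and the nuclear receptor NR2F1 (-1.13, SE 0.11) were also called lower. GATA2 was called lower too (-3.52, adjusted p 0.00365, edgeR). It was tested under 13 of the 15 alternatives and dropped out under stricter filters on level, so its values are given as a description. The calcineurin-dependent factor NFATC1 (2.25, SE 0.15) and TRIB3 (1.07, SE 0.065), which binds C/EBP factors and AKT, were called higher. WNT10B was also called higher (1.82, adjusted p 0.00435, edgeR). TRIB3 was 0.97 when scaled by library size alone, and then not called. In the test against a log2 fold change of 1, WNT10B, TRIB3 and NR2F1 were not called. Both lists held genes that rose and genes that fell.

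**Figure D3:**
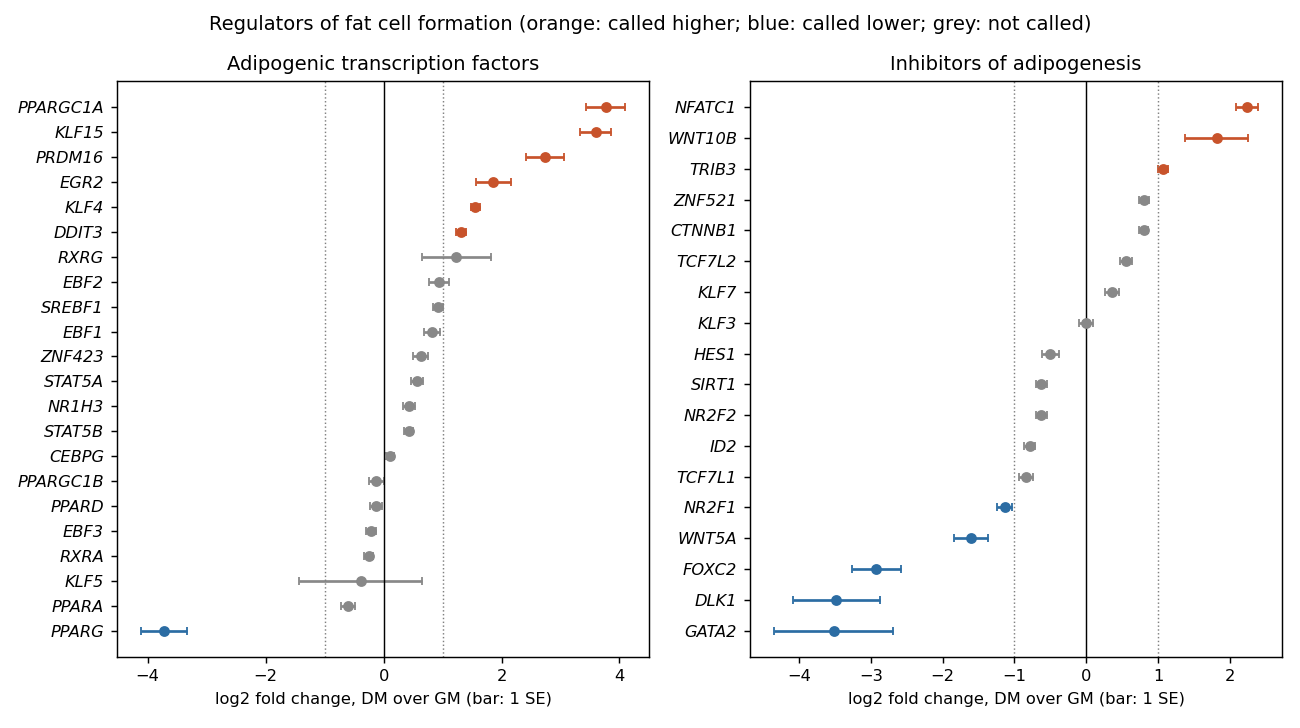
Log2 fold change (x axis, DM over GM, bar 1 SE) of each tested adipogenic transcription factor and inhibitor of adipogenesis, called higher in orange, called lower in blue and not called in grey. PPARG at -3.73 lies at the bottom of the factors and PPARGC1A at 3.77 at the top, and 5 of the 18 inhibitors are called lower.

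Of 10 tested droplet coat and assembly genes, 2 were called, CIDEC higher and PLIN3 lower. Neither was called in the test against a log2 fold change of 1. CIDEC, which fuses droplets in fat cells, had 108, 140 and 77 counts in GM samples and 237, 204 and 271 in DM samples, with a log2 fold change of 1.31 (SE 0.21, adjusted p 0.00027, edgeR). Of 17 triglyceride synthesis genes, GPAM, which starts glycerolipid synthesis in mitochondria, was called higher (log2 fold change 1.21, SE 0.087), as was the phosphatidate phosphatase LPIN1 (1.09, SE 0.15), while SOAT2, a cholesterol esterifying enzyme, was called lower (-2.51, SE 0.39). LPIN1 was 0.95 without DM replicate 3 and then not called. The enzymes of the last step, DGAT1 (-0.12, adjusted p 0.181, edgeR) and DGAT2 (0.44, adjusted p 0.496, edgeR), did not pass the test.

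Of 11 tested lipolysis genes, 1 was called. G0S2, the inhibitor of the triglyceride lipase PNPLA2, fell from 969, 1250 and 987 counts in GM samples to 283, 319 and 157 in DM samples, with a log2 fold change of -1.90 (SE 0.22, adjusted p 2.56e-05, edgeR). PNPLA2 had a log2 fold change of 0.34 (SE 0.079), under the fold needed for a call, and the hormone-sensitive lipase LIPE had 0.12 (adjusted p 0.758, edgeR).

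LPL is matured, held back and helped by other secreted and membrane proteins. Of 12 tested genes of the lipoprotein lipase axis, 4 were called higher and none lower: the apolipoprotein APOE (log2 fold change 2.71, SE 0.14), the lipoprotein receptor VLDLR (2.16, SE 0.092), the protease PCSK6 (1.98, SE 0.31) and the receptor LRP1 (1.04, SE 0.082). LRP1 was close to the fold needed: it was 0.999 without GM replicate 3 and 0.976 without DM replicate 1, and then not called. The maturation factors LMF1 (0.31) and LMF2 (-0.18) did not pass the test.

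Fatty acid uptake and binding genes went in both directions, with 2 of 16 called higher and 2 lower. FABP5, the epidermal form, was called lower (log2 fold change -1.26, SE 0.20), as was MFSD2A (-1.63, SE 0.093), a carrier of lysophospholipids. FABP7, the brain form, was called higher, at 2.52 (SE 0.67) with all samples and 1.34 without DM replicate 3, which held 181 of its counts against 45 and 26 in the other DM samples. ACSL5, which activates fatty acids, was called higher (1.24, SE 0.11). Of 22 fatty acid oxidation genes, CPT2 (1.57, SE 0.080) and CPT1C (3.52, SE 0.24) were called higher and the rest were not called, with a list median of -0.028.

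The hormone side of the fat cell was mixed too. Of 13 tested hormone response genes, the insulin-dependent glucose transporter SLC2A4 (log2 fold change 1.44, SE 0.25) and the insulin receptor substrate IRS2 (1.31, SE 0.078) were called higher. PDE3B (-2.58, SE 0.17), which breaks down cAMP under insulin, was among the genes called lower. Of 4 tested secreted products, APLN (1.86, SE 0.26) and RARRES2 (1.03, SE 0.18) were called higher. RARRES2 was 0.90 without GM replicate 1 and 0.79 without DM replicate 3, and then not called. RBP4, the retinol carrier, had a log2 fold change of -0.76 (SE 0.089).

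Over these 10 lists together, 145 genes were tested, of which 24 were called higher and 13 lower. That is 25.5% called, beside 25.3% of all tested genes, and 71.7% did not overlap between groups, beside 68.8% of all tested genes. Both shares are close to those over all genes. Without DM replicate 3, 143 were tested, of which 24 were called higher and 13 lower.

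**Figure D4:**
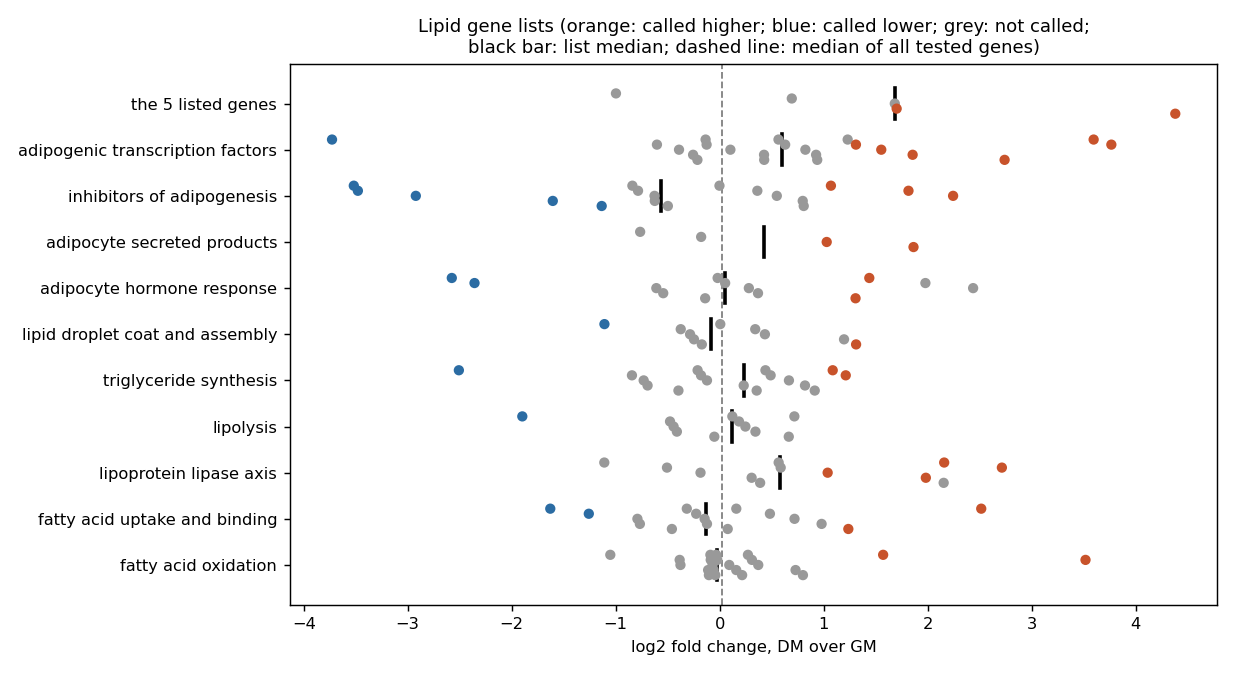
Log2 fold change (x axis, DM over GM) of every tested gene of the 5 listed genes and of the 10 lists, 1 point per gene, called higher in orange, called lower in blue and not called in grey, with the list median as a black bar and the median of all tested genes as a dashed line. The transcription factors span -3.73 to 3.77, and most points of the synthesis, lipolysis and oxidation lists lie between -1 and 1.

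Markers of the cell types that could carry these transcripts were summed in each sample. Beside the counts of called markers, 15% of all tested genes were called higher and 10.3% lower with all samples. Of 8 listed mature adipocyte markers, 6 were tested. FABP4, CIDEC and SLC2A4 were called higher, while ADIPOQ, PLIN1 and LIPE were not called. FABP4, which entered the test through its DM counts alone, averaged 0.411 CPM in DM samples. The sum of the 8 markers was 5.51 to 6.27 CPM in GM samples and 10.9 to 14.8 CPM in DM samples. FABP4, ADIPOQ and PLIN1 were a small part of this sum. ADIPOQ averaged 0.124 CPM in GM and 0.2 CPM in DM samples, and PLIN1 averaged 0.113 and 0.378 CPM. Whether the sum follows the number of fat cells was not tested. LEP and RETN, hormones of fat cells, were near 0, with 0, 0 and 1 counts of LEP in GM samples and 0, 1 and 3 in DM samples, and a total of 1 count of RETN over the 6 samples. Markers of fibro-adipogenic progenitors summed to 1610 to 1638 CPM in GM samples and 3646 to 5206 CPM in DM samples, and 9 of 15 were called higher and none lower, among them DCN (log2 fold change 2.37) and MFAP5 (2.57), both matrix genes. Myogenic markers summed to 2885 to 3504 CPM in GM samples and 7594 to 10550 CPM in DM samples, with 7 of 11 called higher, MYOG (1.66) among them, and 1 lower. Macrophage markers, which matter because macrophages also make FABP4, summed to 7.39 to 10.5 CPM in GM samples and 8.46 to 16.5 CPM in DM samples. Of 11 tested macrophage markers, 2 were called higher and 1 lower, and the list median of the log2 fold change was -0.59. CD14, a receptor for bacterial lipid, was called higher (2.75) and the lysosomal protein CD68 lower (-1.04), while the leukocyte gene PTPRC had 0 to 2 counts per sample. Endothelial markers, whose cells can also make FABP4, summed to 20.8 to 23.6 CPM in GM samples and 15.6 to 25.9 CPM in DM samples, with 1 of 11 called higher and 4 lower and 0 to 8 counts of PECAM1 per sample. Without DM replicate 3, the genes called higher numbered 4 of 6 mature adipocyte markers, 9 of 15 progenitor markers, 8 of 11 myogenic markers, 3 of 11 macrophage markers and 1 of 11 endothelial markers. The part of any of these cell types in the levels of PLIN2 and FABP4 was not tested.

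**Figure D5:**
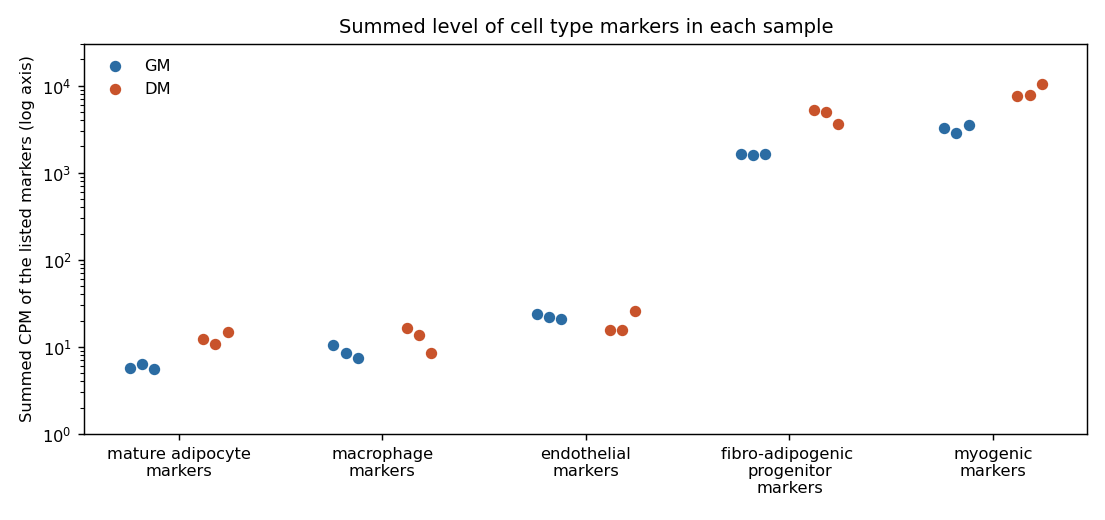
Summed CPM of the listed markers of each cell type (y axis, log scale) in each GM (blue) and DM (orange) sample. Mature adipocyte markers are at 5.51 to 14.8 CPM and fibro-adipogenic progenitor and myogenic markers at 1610 CPM or more in every sample.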

How the data were processed

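The authors deposited raw counts per gene and per mRNA transcript and RPKM values computed from them. RPKM, per the file headers, is the count scaled by gene length and by the sample's summed counts, which was checked on the table. The methods name HISAT2 and a buffalo genome, the tables list cattle Ensembl identifiers with no build, and the submitters' processing notes name Bowtie 0.12.2 and mouse builds. The counting tool and strand setting are not given in the sources used here. Lists of the authors' own fold changes, p-values and q-values and the ncRNA table were not used.

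Counts were tested with edgeR 4.0.16 under R 4.3.3 (the quasi-likelihood functions glmQLFit and glmQLFTest, TMM, genes with at least 10 counts in total) on all 6 samples, with Benjamini-Hochberg adjustment over all tested genes. Standard errors come from the F statistic. The genes and lists were chosen with earlier results of these data known. Genes named were the listed genes, ZNF423, PPARG, up to 4 called genes per list with the largest change and at least 1 CPM, and genes a role required. Family shares were compared with an exact permutation test. Alternatives were DESeq2 1.42.0, other scalings, filters and thresholds, a replicate block and leaving out each sample. The pipeline was tested on simulated data. Figures were drawn with Python 3.11.15 and matplotlib 3.10.9.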

Additional observations from a re-analysis of the deposited data

How the results depend on the processing

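Genes called numbered 3936, and 3673 with DESeq2, 3837 with the replicate block and 3647 to 3995 when 1 sample was left out. With genes of at least 1 RPKM in more than 50% of samples, 2197 genes were called, and of the listed genes 1, PLIN2, was tested and called. Without a minimum fold change 9813 genes were called, and with a test against a log2 fold change of 1 2293 were. In the latter test CIDEC, PLIN3, SLC2A4, FABP5, FABP7, LPIN1, LRP1, RARRES2, WNT10B, TRIB3 and NR2F1 lost their call. PLIN2 kept its call under all 15 alternatives, with log2 fold changes of 1.60 to 1.84. FABP4 kept its call under the 14 in which it was tested. All of these drew on the same few counts, and FABP4 entered the test through its DM counts alone. Its kept call is therefore a description and not support. When 1 sample was left out, the log2 fold change of ADIPOQ ranged from -0.12 to 1.19 and that of FABP3 from -0.061 to 0.31, both below 0 without DM replicate 3. Of 802 values for 55 genes of the lists, 770 kept direction and call, 20 lost the call, 10 gained it and 2 changed direction. Same-numbered GM and DM samples did not deviate together (r of -0.00756, -0.0218 and -0.0105), so the replicate number was not taken to pair samples. The count without DM replicate 3 for each list was chosen after seeing the data.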
